A study of Homo sapiens with 11 samples.

Results

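The genes described here were 48 cell cycle genes, 16 that act at DNA replication and in S phase and 32 that act in mitosis, read in human PC-3 cells after transfection of small RNA duplexes. They were chosen by name, as every probe whose gene symbol on the array was among the 48. The rule uses function and no threshold on a measured value, but the list was drawn up with earlier results of these data known. They took 59 of the 41000 probes on the array, 18 for the S phase genes and 41 for the mitosis genes, and 10 of the genes had more than 1 probe. PC-3 is an established human prostate cancer line, and the study compared the expression profiles left by 6 chemically synthesized duplexes 24 hours after transfection. dsEcad640 is an siRNA designed against the E-cadherin promoter, and the other 5 duplexes were the microRNAs miR-373, miR-302a, miR-520f, miR-372 and miR-520c. Mock cells received the transfection reagent and no RNA, so a response to any duplex and a response to a given sequence cannot be told apart by these controls. Each array was hybridised with 150 ng of RNA mixed from 4 transfections.

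The 11 arrays lay on 3 slides, called sets. On set 1 a mock array (sample 1) stood beside miR-372 (sample 4), miR-302a (sample 3) and dsEcad640 (sample 2). Set 2 had a mock array (sample 8) with miR-373 (sample 7) and miR-520f (sample 6), and set 3 had 2 mock arrays (samples 9 and 11) with miR-520c (sample 12) and a further miR-372 array (sample 10). The title of sample 6 spells its duplex miR-530f, while its other labels give miR-520f. Each array reads a mix, so p-values below measure the spread between arrays, which may be technical. With bulk RNA, fewer cells in a phase of the cycle and less RNA of a gene per cell cannot be told apart.

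Genes of the S phase group are transcribed around the G1/S transition, largely under E2F factors, and their products license origins, unwind DNA and supply nucleotides. Genes of the mitosis group are transcribed later, in G2 and M, and build the spindle, the kinetochore and the contractile ring or drive entry into and exit from mitosis. A microRNA lowers its direct targets mainly through bases 2 to 8 of its guide strand, the seed, which pairs with the messenger RNA.

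The guide strands are shown because the seed sets the grouping of the duplexes used below. RefSeq (GRCh38.p14) gives the mature 3p strands as follows, with bases 2 to 8 in capitals.
miR-302a-3p: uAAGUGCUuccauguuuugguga
miR-372-3p: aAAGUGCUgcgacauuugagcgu
miR-373-3p: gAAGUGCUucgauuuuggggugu
miR-520c-3p: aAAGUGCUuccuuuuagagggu
miR-520f-3p: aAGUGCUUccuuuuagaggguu
The first 4 of these strands carried an identical seed, and the study describes dsEcad640 as sharing it. These 5 are called the common-seed duplexes (6 arrays). The seed of miR-520f is shifted by 1 base, and miR-520f was kept apart.

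All 48 genes had a probe that the scanner software called well above background on 6 or more of the 11 arrays, and 56 of the 59 probes were well above background on all 11. Over the whole array, 27118 probes passed this filter. The share of probes well above background ran from 54.3% for miR-520f to 72.7% for mock sample 11, apart from miR-372 sample 4 with 88.1%. On that array 27.4% of all probes stood over 0.5 above mock on the log2 scale, so low signals were raised there as a whole. No member probe was saturated. KRT8, KRT18 and VIM, expressed in PC-3, were well above background on all 11 arrays with each of their probes. Of 3 KLK3 probes, 1 was well above background on all 11 arrays, although the gene is low in this line.

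Levels are given as the log2 processed signal minus the 75th percentile of its array, so that 0 is the level of that percentile and levels are compared only within a probe. Differences are a duplex array minus the mean of the mock arrays of its own set. Several duplexes share a mock array, so their differences are not independent of each other. Across the 6 common-seed arrays against the 4 mock arrays, with the set as a block in limma, CCNE1 and CCNF rose, and the other 46 genes did not pass an adjusted p of 0.05. The 5 different common-seed duplexes were taken as 1 group in this test, so its spread also holds differences between duplexes. Over all probes 4.07% passed this test in either direction, 1.97% upward and 2.10% downward. In the S phase group 1 of 16 genes passed, upward, and in the mitosis group 1 of 32, upward. At an unadjusted p under 0.05 the S phase group had 4 genes higher and 1 lower and the mitosis group 3 higher and 7 lower, beside 11.3% of all probes higher and 9.69% lower. Both groups thus had 31.25% of their genes past the unadjusted threshold, where all probes had 21.0%. The counts are small, at 5 of 16 and 10 of 32 genes. Nearly all member probes (56 of 59) were well above background on all 11 arrays, where the filter asked for 6, so all probes take in more dim ones. No excess is read from these shares.

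**Figure D1:**
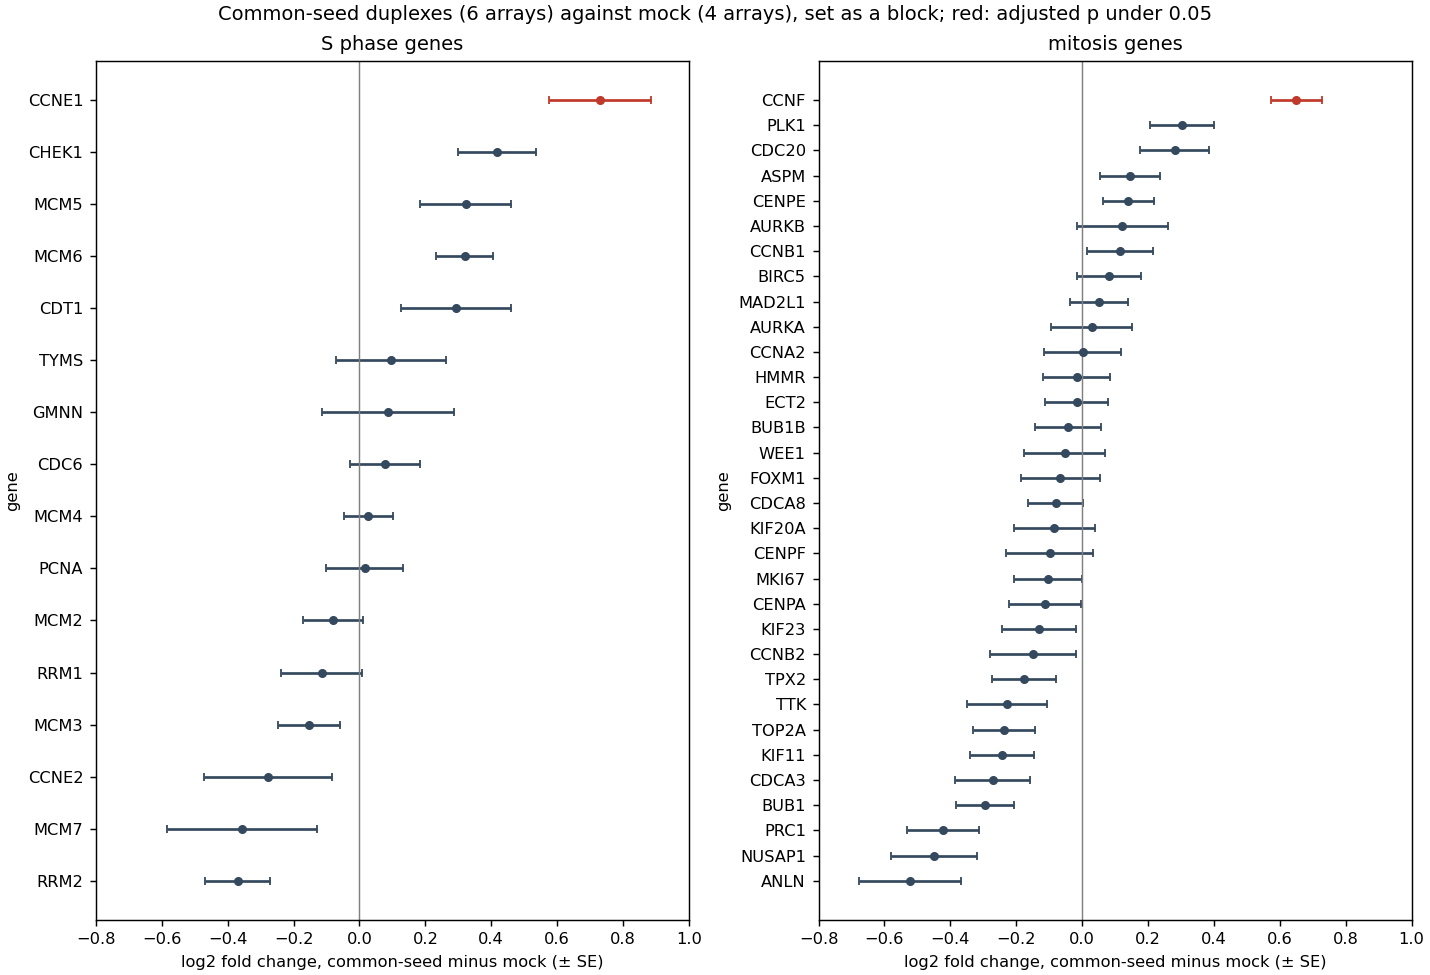
The log2 fold change of each gene, common-seed duplexes minus mock (limma, set as a block), is plotted on the x axis with bars of 1 SE, S phase genes left and mitosis genes right, each gene on its own line. CCNE1 (0.73) and CCNF (0.65) are drawn in red for an adjusted p under 0.05, and ANLN (-0.52) has the lowest value.

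CCNE1 encodes cyclin E1, which activates CDK2 at the G1/S transition. Its probe lies at chr19:35006946-35007005 (hg18, plus strand). Its mock levels were 1.31 in set 1, 1.33 in set 2, and 1.36 and 1.77 in set 3. The levels were 2.42 with dsEcad640, 2.11 with miR-302a, 1.97 and 2.03 with miR-372, 1.87 with miR-373, 2.56 with miR-520c and 2.44 with miR-520f. All 7 duplex arrays lay above all 4 mock arrays, and mock sample 11 stood 0.41 above mock sample 9 on the same slide. The common-seed change was 0.73 (SE 0.16, limma adjusted p 0.0438), a fold of 1.66. The call was fragile: it was kept without miR-372 sample 4 (adjusted p 0.0315) and lost when any other array of the comparison was left out, with adjusted p from 0.0585 without miR-372 sample 10 to 0.226 without mock sample 1. It was also lost without the set block (adjusted p 0.0763) and with no filter on dim probes (0.130). The change itself stayed between 0.64 and 0.82 throughout. CCNE2, the paralog cyclin E2, gave a common-seed change of -0.28 (SE 0.19, adjusted p 0.479). Its differences were 0.52 and -0.49 on the 2 miR-372 arrays, -0.48 with miR-302a, -0.34 with miR-373, -0.41 with miR-520c, -0.05 with dsEcad640 and 0.17 with miR-520f. The CCNE2 probe was dim, at a mock mean of -2.50, and its high value was on sample 4, the array with raised low signals.

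CHEK1 encodes the checkpoint kinase that restrains CDK activity while replication is under way. Mock levels were 2.07, 2.07, 2.50 and 2.80 in samples 1, 8, 9 and 11. The duplex levels were 2.59 (dsEcad640), 2.40 (miR-302a) and 2.35 (miR-372) in set 1, 2.68 (miR-520f) and 2.36 (miR-373) in set 2, and 2.95 (miR-372) and 3.36 (miR-520c) in set 3. Every duplex lay above the mock arrays of its own set, but set 3 was higher as a whole and its mock levels overlapped the duplex levels of sets 1 and 2. The common-seed change was 0.42 (SE 0.12) with a limma adjusted p of 0.0918.

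The MCM genes encode the 6 subunits of the replicative helicase and did not move as a block. For MCM6 the differences were 0.24 with dsEcad640, 0.33 with miR-302a, 0.15 and 0.45 with miR-372, 0.19 with miR-373 and 0.44 with miR-520c, against -0.25 with miR-520f. MCM5 gave 0.28, 0.41, 0.17, 0.19, 0.15 and 0.68 on the same arrays in that order and -0.14 with miR-520f. Both genes were thus above mock on all 6 common-seed arrays and below it with miR-520f. The common-seed changes were 0.32 (SE 0.09, limma adjusted p 0.0800) for MCM6 and 0.32 (SE 0.14, adjusted p 0.236) for MCM5. MCM3 was below mock on all 7 arrays, from -0.02 with miR-372 sample 10 to -0.60 with miR-520f. MCM7 stood apart in miR-520c, where its level was 4.75 beside mock levels of 5.82 and 5.99 on that slide, a difference of -1.16. With the other duplexes MCM7 differed from mock by -0.49 (dsEcad640) to 0.10 (miR-520f), with -0.31 on miR-372 sample 4. MCM2 and MCM4 stayed within -0.33 and 0.13 of mock on all arrays.

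CDT1 loads the MCM helicase onto origins and geminin, encoded by GMNN, inhibits it. CDT1 had its largest difference with miR-520c, 0.80, where the other arrays gave -0.06 to 0.20. A second CDT1 probe gave 1.17 with miR-520c, 0.52 and 0.14 on the miR-372 arrays (samples 10 and 4), 0.43 with miR-302a and 0.29 with dsEcad640. The mock arrays of the miR-520c slide (samples 9 and 11) were themselves apart, at 3.85 and 4.34 for the first probe and 0.79 and 1.48 for the second. GMNN was above mock by 0.44 with dsEcad640, 0.51 with miR-520f and 0.40 with miR-520c, and below it with miR-372 sample 10 at -0.59. The other miR-372 array gave 0.08 and both arrays of that duplex lay below every other duplex array for this gene.

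RRM2 encodes the small subunit of ribonucleotide reductase, which makes deoxynucleotides. Its mock levels were 1.49, 1.56, 1.76 and 1.85 in samples 1, 8, 9 and 11, and the duplex levels were 1.02 (dsEcad640), 1.13 (miR-302a), 1.24 and 1.33 (miR-372), 1.49 (miR-373), 1.23 (miR-520c) and 1.38 (miR-520f). All 7 lay below the mock arrays of their sets, with differences from -0.07 (miR-373) to -0.57 (miR-520c). Across the common-seed arrays the change was -0.37 (SE 0.10, limma adjusted p 0.0794), and the second RRM2 probe gave -0.22 (SE 0.11, adjusted p 0.307) and was above mock with miR-373 (0.05) and miR-520f (0.08). The large subunit RRM1 gave -0.11 (SE 0.12) and ranged from -0.46 with miR-520f to 0.15 with miR-520c, with -0.29 on miR-372 sample 4 and -0.18 with miR-373. TYMS, CDC6 and PCNA, which supply thymidylate, load MCM and clamp the polymerase, had common-seed changes of 0.10, 0.08 and 0.02, each smaller than its SE. PCNA was above mock in sets 1 and 2 with every common-seed duplex (0.17 to 0.35) and below it in set 3 (-0.24 and -0.25).

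**Figure D2:**
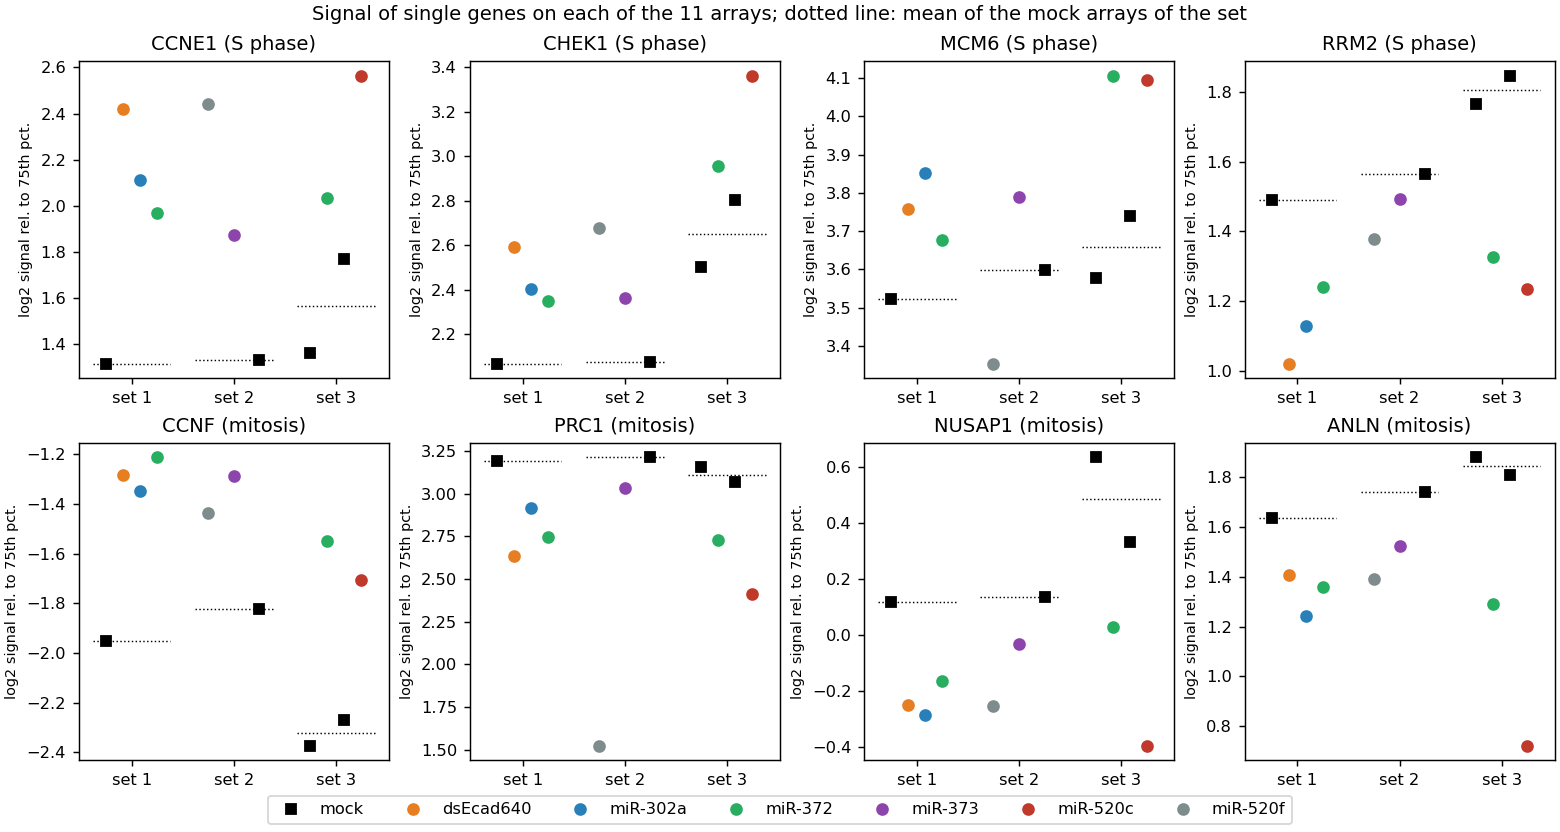
Each panel plots the level of a gene (log2 signal after subtraction of the array's 75th percentile, y axis) on the 11 arrays, ordered by set on the x axis, with squares for mock arrays, circles coloured by duplex and a dotted line at the mock mean of the set. CCNE1 and CCNF lie above and PRC1, NUSAP1 and ANLN below the mock squares on the duplex arrays, and PRC1 falls to 1.52 on the miR-520f array.

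Among the mitosis genes the gene that rose was CCNF, which encodes cyclin F, the substrate receptor of an SCF ubiquitin ligase that degrades cell cycle proteins. Its probe lies at chr16:2447223-2447282 (hg18, plus strand). Mock levels were -1.95 in sample 1, -1.82 in sample 8, -2.37 in sample 9 and -2.27 in sample 11. The duplex levels were -1.28 (dsEcad640), -1.35 (miR-302a), -1.21 (miR-372) and, in set 2, -1.29 (miR-373) and -1.44 (miR-520f). In set 3 they were -1.55 (miR-372) and -1.71 (miR-520c). All 7 duplex arrays lay above all 4 mock arrays. The common-seed differences kept within 0.53 and 0.77, and miR-520f gave 0.39. The common-seed change was 0.65 (SE 0.08, limma adjusted p 0.00790), a fold of 1.57. Without mock sample 1 it was 0.64 with an adjusted p of 0.0879, and leaving out any other single array kept the call, which was also lost without the set block (0.71, adjusted p 0.0546). A second CCNF probe gave 0.79 (SE 0.23, adjusted p 0.102) and was above mock on 7 of 7 duplex arrays. Both probes were dim, at mock means of -2.10 and -4.48, and the second was well above background on 10 arrays. The largest difference of the second probe, 1.45, was on miR-372 sample 4, the array with raised low signals. With normexp background correction the change of the first probe was smaller, at 0.46 (limma adjusted p 0.0127).

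None of the other cyclins and kinases of mitotic entry passed the test. CCNA2, CCNB1 and CCNB2, the cyclins that activate CDK1, gave 0.00, 0.12 and -0.15, and a dimmer second probe of CCNB2, well above background on 8 arrays, had the opposite sign (0.68, SE 0.59). The lowest CCNB2 difference was -0.57, on miR-372 sample 10. WEE1, the kinase that holds CDK1 inactive, gave -0.05 (SE 0.12), with 0.11 on the miR-520f array. PLK1, which drives entry and spindle assembly, was above mock on all 6 common-seed arrays by 0.04 to 0.58 (change 0.30, SE 0.10, limma adjusted p 0.120), but its second probe was below mock with dsEcad640 (-0.06) and miR-520c (-0.27). CDC20, the activator of the anaphase-promoting complex, gave 0.28 (SE 0.10, adjusted p 0.170). Its differences were -0.06 with dsEcad640, 0.26 with miR-302a, 0.06 and 0.43 with miR-372, 0.33 with miR-373, 0.38 with miR-520c and -0.02 with miR-520f. AURKB, the kinase of the chromosomal passenger complex, was higher on all 3 duplex arrays of set 1 (0.30, 0.57 and 0.65), which share mock sample 1, and between -0.35 and 0.01 on the others.

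Genes of the spindle midzone and cytokinesis had unequal values. PRC1 bundles the antiparallel microtubules of the midzone. Its mock levels were 3.19, 3.21, 3.15 and 3.07 in samples 1, 8, 9 and 11, with an SD of 0.06. The duplex levels were 2.63 with dsEcad640, 2.92 with miR-302a, 2.75 and 2.73 with miR-372, 3.04 with miR-373, 2.41 with miR-520c and 1.52 with miR-520f. All 7 lay below all mock arrays, and miR-520f stood far below the rest at a difference of -1.69, while miR-373 on the same slide differed by -0.18. In the common-seed comparison PRC1 gave -0.42 (SE 0.11, limma adjusted p 0.0724). KIF23, a motor of the centralspindlin complex that acts beside PRC1, gave -1.04 with miR-520f and 0.01 with miR-373. It gave -0.57 with dsEcad640 and 0.01 with miR-520c, and its common-seed change was -0.13 (SE 0.11). ECT2 and KIF20A, which act at the same place, had common-seed changes of -0.02 and -0.08. The other probes of ECT2 gave -0.27 (SE 0.15) and -0.58 (SE 0.37), the last from a dim probe well above background on 8 arrays.

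ANLN encodes anillin, the scaffold of the contractile ring. Mock levels were 1.64, 1.74, 1.88 and 1.81, and the duplex levels were 1.41 (dsEcad640), 1.24 (miR-302a), 1.36 and 1.29 (miR-372), 1.53 (miR-373), 0.72 (miR-520c) and 1.39 (miR-520f). All duplex arrays lay below all mock arrays, and miR-520c gave the lowest value, a difference of -1.12. In the common-seed comparison ANLN gave -0.52 (SE 0.16, limma adjusted p 0.104).

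NUSAP1, which bundles spindle microtubules around chromosomes, had mock levels of 0.12, 0.14, 0.63 and 0.33 in samples 1, 8, 9 and 11. The duplex levels were -0.25, -0.29 and -0.16 in set 1 (dsEcad640, miR-302a and miR-372), -0.25 and -0.03 in set 2 (miR-520f and miR-373), and 0.03 and -0.39 in set 3 (miR-372 and miR-520c). The common-seed change was -0.45 (SE 0.13, adjusted p 0.0983), and no duplex array reached the lowest mock array, although the mock arrays of set 3 differed by 0.30. The spindle factors TPX2 and KIF11 gave -0.18 (SE 0.10) and -0.24 (SE 0.10), both below mock on 7 of 7 duplex arrays, and a second KIF11 probe gave -0.40 (SE 0.11, adjusted p 0.0912). AURKA, the kinase that TPX2 activates, gave 0.03 (SE 0.12), and ASPM and HMMR, which act at spindle poles, gave 0.15 and -0.02.

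BUB1, a kinase of the spindle checkpoint, differed from mock by -0.44 with dsEcad640, -0.29 with miR-302a, -0.40 and -0.20 with miR-372, -0.12 with miR-373, -0.45 with miR-520c and -0.26 with miR-520f, so that all 7 arrays were below mock. Its common-seed change was -0.30 (SE 0.09, limma adjusted p 0.104). TTK, which recruits BUB1 to kinetochores, was below mock on 7 of 7 arrays, most with miR-520c at -0.62. The checkpoint genes BUB1B and MAD2L1 gave -0.04 (SE 0.10) and 0.05 (SE 0.09). Of the centromere genes, CENPF gave -1.24 with miR-520f and -1.75 with its second probe, and between -0.49 and 0.32 with the common-seed duplexes. CENPA and CENPE gave common-seed changes of -0.11 and 0.14. CDCA3, which takes part in the degradation of WEE1, gave -0.63 with dsEcad640 and -0.65 with miR-520f and -0.15 to -0.37 with the others. TOP2A, which decatenates chromosomes, was below mock on all 7 arrays, from -0.09 to -0.45, with -0.44 for miR-302a. MKI67, BIRC5, CDCA8 and FOXM1 had common-seed changes from -0.10 to 0.08, with SE from 0.08 to 0.12.

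**Figure D3:**
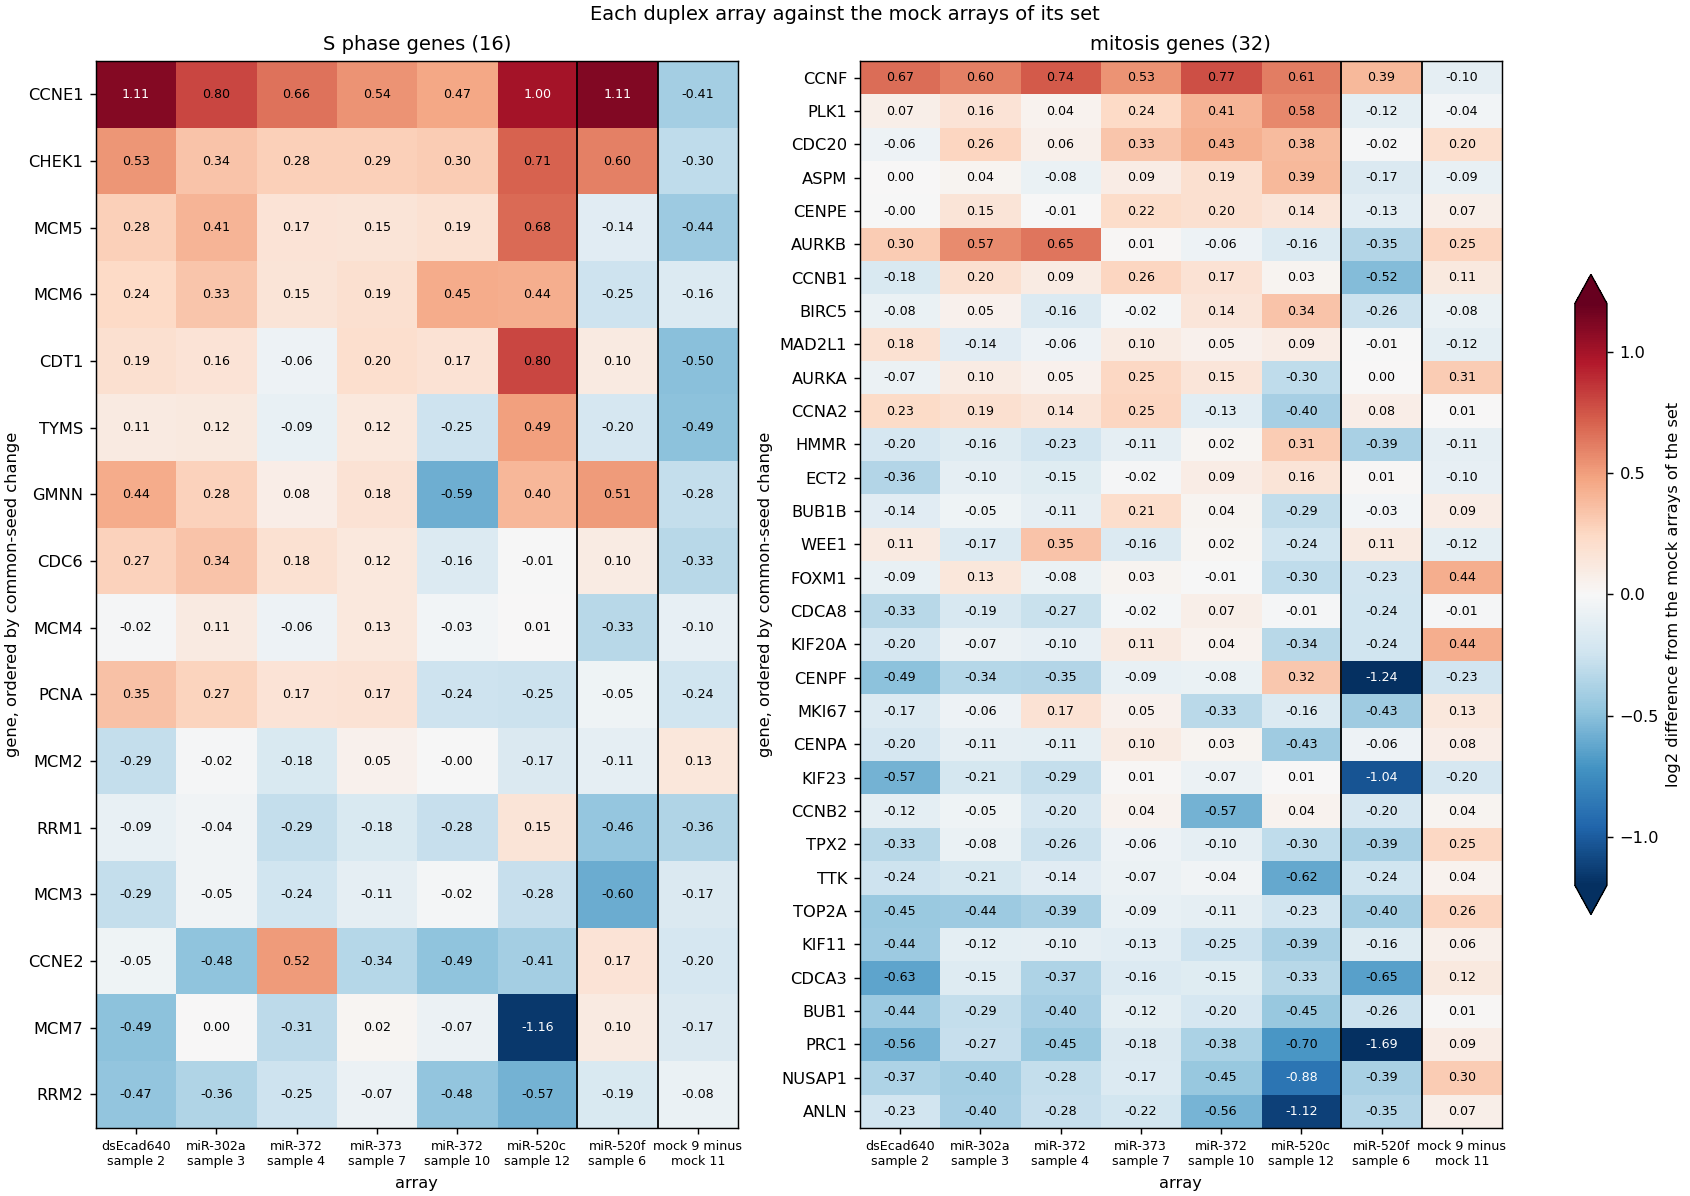
Log2 differences from the mock arrays of the set are shown by colour and printed value for the 16 S phase genes (left) and the 32 mitosis genes (right), 1 row per gene ordered by the common-seed change and 1 column per duplex array. The column of mock sample 9 minus mock sample 11 gives the spread within a slide, and the miR-520f column holds the values -1.69, -1.24 and -1.04 for PRC1, CENPF and KIF23.

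Counted by direction, 9 of 32 mitosis genes (28.1%) were below mock on all 6 common-seed arrays, namely BUB1, TOP2A, KIF11, NUSAP1, TPX2, TTK, CDCA3, ANLN and PRC1, where 11.9% of all probes were. CCNF and PLK1 were above it on all 6 (6.25%, all probes 15.8%). In the S phase group MCM3 and RRM2 were below on all 6 (12.5%) and MCM5, MCM6, CHEK1 and CCNE1 above (25%). KIF11, NUSAP1, CDCA3, ANLN and PRC1, 5 of 32, had every common-seed array below every mock array, beside 3.51% of all probes, and CCNE1 and CCNF had every array above, beside 3.04%. Counted by set mean, which does not reuse a mock array, 9 of 32 mitosis genes were below mock in all 3 sets (28.1%, all probes 22.6%) and 5 above (15.6%, all probes 25.8%). For the S phase genes it was 4 of 16 below (25%) and 6 of 16 above (37.5%). All of these shares over all probes take in miR-372 sample 4, where low signals were raised.

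The medians of the groups were small next to these single genes. The common-seed median was 0.05 for the S phase genes (-0.37 to 0.73, 10 above 0 and 6 below) and -0.07 for the mitosis genes (-0.52 to 0.65, 11 above and 21 below), with 0.03 over all probes. By array, the S phase median was 0.15 with dsEcad640, 0.14 with miR-302a, 0.01 and -0.05 with miR-372, 0.13 with miR-373, 0.08 with miR-520c and -0.08 with miR-520f. Between the 2 mock arrays of set 3 it was -0.26 (sample 9 minus sample 11), with 15 of 16 S phase genes lower in sample 9, so the spread between mock arrays exceeded the S phase median of every duplex. The mitosis median was -0.19 with dsEcad640, -0.09 with miR-302a, -0.11 and 0.01 with miR-372, 0.01 with miR-373, -0.20 with miR-520c and -0.24 with miR-520f, and 0.07 between the mock arrays. Those of dsEcad640, miR-302a, miR-372 sample 4, miR-520c and miR-520f were farther from 0 than the 0.07 between these mock arrays, and those of miR-373 and miR-372 sample 10 were not. For a further 39 mitosis genes the mock arrays differed by -0.11, with 27 lower in sample 9, so that spread depended on the genes counted.

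**Figure D4:**
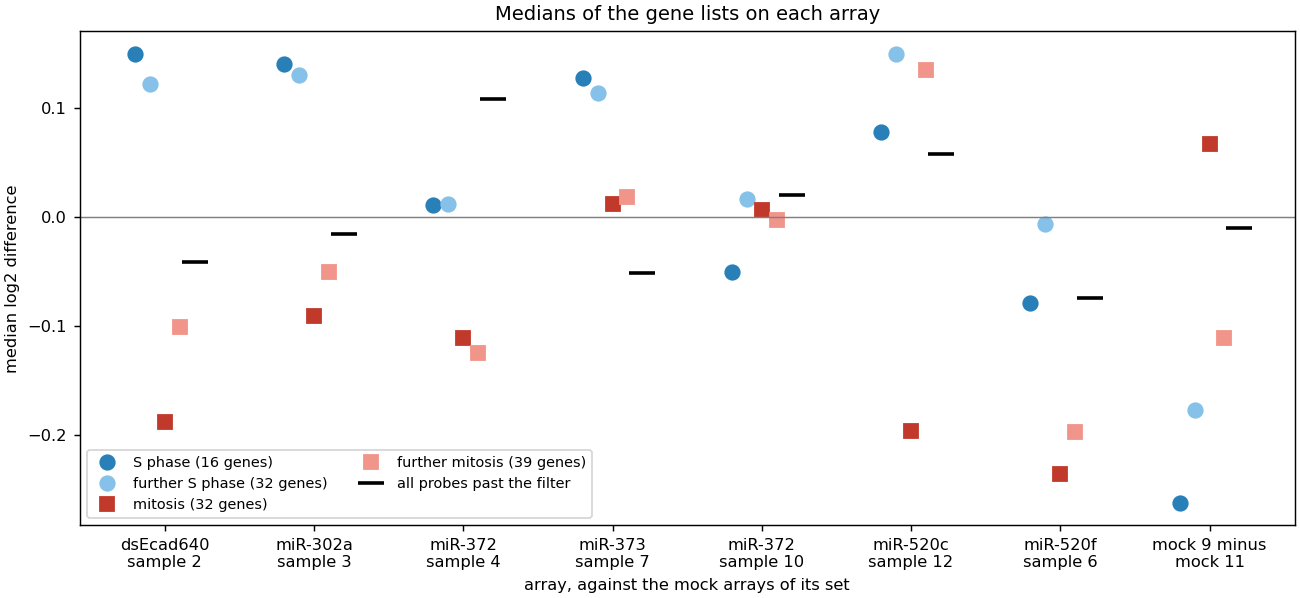
The median log2 difference from the mock arrays of the set (y axis) is plotted per array (x axis) for the S phase and mitosis genes, for further genes of both phases and for all probes past the filter. The S phase median is -0.26 for mock sample 9 minus mock sample 11, below every duplex array, and the mitosis median is lowest with miR-520f at -0.24.

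Taken duplex by duplex, no probe on the array passed an adjusted p of 0.05 in limma for any duplex, 5 of which had a single array. At an unadjusted p under 0.05, dsEcad640 had CCNE1 and CCNF higher and PRC1 lower (7.89% of all probes), and miR-302a had CCNE1 and CCNF higher (all probes 4.05%). miR-372 had CCNE1 and CCNF higher and PRC1 and ANLN lower (all probes 9.48%). miR-520f had CCNE1 higher and PRC1, CENPF, KIF23 and CDCA3 lower (all probes 7.61%). miR-520c had the most members there, with CHEK1, CDT1, CCNE1 and CCNF higher and MCM7, RRM2, ANLN, NUSAP1, PRC1 and TTK lower, where 16.9% of all probes passed for that duplex. miR-373 had none of the 48, beside 3.65% of all probes. For PRC1 with miR-520f the fitted change was -1.69 (SE 0.21, adjusted p 0.436).

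Differences past 0.5 in size, a fold of 1.41, were then counted on each array, with no test. Of the S phase genes, dsEcad640 had 2 higher (12.5%, all probes 7.89%), miR-302a 1 (6.25%, all probes 4.85%), miR-373 1 (6.25%, all probes 4.53%), miR-372 sample 4 had 2 (12.5%, all probes 27.4%), miR-520c 4 (25%, all probes 18.2%) and miR-520f 3 (18.8%, all probes 7.77%). miR-372 sample 10 had none, where all probes had 7.80%. CCNE1 was among these genes on every array but that of sample 10. S phase genes lower by this amount were MCM3 with miR-520f (6.25%, all probes 17.4%) and GMNN with miR-372 sample 10 (6.25%, all probes 6.27%). MCM7 and RRM2 were lower with miR-520c (12.5%, all probes 14.9%). The other arrays had none, beside 4.72% to 13.4% of all probes.

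Of the mitosis genes, 5 were lower by over 0.5 with miR-520f (15.6%, all probes 17.4%), 4 with miR-520c (12.5%, all probes 14.9%), 3 with dsEcad640 (9.38%, all probes 13.4%) and 2 with miR-372 sample 10 (6.25%, all probes 6.27%). miR-302a, miR-373 and miR-372 sample 4 had none, beside 8.29%, 11.8% and 4.72% of all probes. The share of mitosis genes lower by this amount was thus near or below that of all probes on the 7 duplex arrays. It was also below that of all probes between the 2 mock arrays of set 3, given below, so no effect of the duplexes is read from it. CCNF was higher by over 0.5 on all 6 common-seed arrays, and the other mitosis genes past it upward were AURKB with miR-302a and miR-372 sample 4 and PLK1 with miR-520c. The share higher was 6.25% with miR-302a, miR-372 sample 4 and miR-520c, beside 4.85%, 27.4% and 18.2% of all probes. With dsEcad640, miR-373 and miR-372 sample 10 it was 3.125%, beside 7.89%, 4.53% and 7.80%. The miR-520f array had none, beside 7.77%. Between the 2 mock arrays of set 3 no gene of either group reached 0.5 by its probe of highest mean signal. Over all probes 6.36% were lower and 8.95% higher by that amount. The second probes of CDT1 (-0.69) and CCNB2 (1.52) did pass it.

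The 2 miR-372 arrays came from different slides and different mock arrays. Both were below mock for 13 of 32 mitosis genes (40.6%, all probes 23.5%), both above for 6 (all probes 37.5%), and 13 had opposite signs (40.6%, all probes 39.0%). For the S phase genes 7 of 16 were below on both arrays (43.75%), 4 above on both (25%) and 5 opposite (31.25%). The excess below mock was thus not particular to the mitosis genes. The shares over all probes take in sample 4, where low signals were raised and 27.4% of all probes stood over 0.5 above mock. The larger disagreements were CCNE2, GMNN and AURKB, with 0.52 and -0.49, 0.08 and -0.59, and 0.65 and -0.06 on samples 4 and 10.

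miR-520f and miR-373 shared a slide and a mock array, so their direct difference leaves the mock array out. miR-520f was below miR-373 for 30 of 32 mitosis genes, with a median of -0.25, where 52.7% of all probes were below. 4 of them were lower by over 0.5 (12.5%, all probes 10.3%), PRC1 by -1.51, CENPF by -1.15, KIF23 by -1.05 and CCNB1 by -0.78. WEE1 (0.27) was among the 2 mitosis genes above. For the S phase genes 11 of 16 were below, with a median of -0.14, and CCNE1 (0.57) and CCNE2 (0.51) were higher with miR-520f by over 0.5 (12.5%, all probes 8.32%). Each side is 1 array, and the difference was not tested.

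The promoters of both groups were searched for letters linked to cell cycle transcription, chosen with earlier results of these data known. RefSeq (GRCh38.p14) gave a promoter, 250 bases before to 50 after the start site, for 39 of the 48 genes (13 S phase and 26 mitosis). The CHR element (TTTGAA, either strand) was in 20 of 26 mitosis promoters (76.9%), in 1 of 13 S phase promoters (7.69%, RRM1) and in 15.4% of all 27305 promoters. The CCAAT box (CCAAT, either strand) was in 23 of 26 (88.5%), 8 of 13 (61.5%) and 35.7%. The E2F letters TTCCCGC (either strand) were in 2 of 26 (7.69%), 6 of 13 (46.2%) and 6.56%. Matches to different motifs can share at most an end base, and 18 of 26 mitosis promoters held both (69.2%, all promoters 6.08%).

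The CHR with its surroundings is shown for CCNF, the mitosis gene that rose, and for 3 with low values, with the element in capitals, as the strand of the gene reads.
CCNF, chr16:2429351-2429378, plus strand: ggccgggtgcgTTTGAAaactggggtgg
PRC1, chr15:90994539-90994566, minus strand: ccgtggcgcggTTTGAAattttgcgggg
NUSAP1, chr15:41332883-41332910, plus strand: ggcgccagggaTTTGAAccgcgctgacg
ANLN, chr7:36389831-36389858, plus strand: tgaaattcaaaTTTGAAcggctgcagag
Counted from the start site, the element began at base -85 in CCNF, at base -20 in PRC1 and ANLN and at base 13 in NUSAP1. The ANLN stretch also held the letters of the opposite strand, TTCAAA, from base -26, left here in lower case. CCNF, with the highest common-seed change of the mitosis group, and ANLN, with the lowest, thus both held it. The 20 mitosis genes with the letters had a median common-seed change of -0.10, 15 of them below 0, and the 6 without had 0.06, 2 of them below 0. The values of both sets overlapped, from -0.52 to 0.65 and from -0.30 to 0.14. With miR-520f the median difference was -0.22 for the genes with the letters and -0.25 for those without. The 18 genes with both CHR and CCAAT box had a common-seed median of -0.10, and the other 8 had -0.02. Whether the CHR bears on the changes was not tested. A match of letters is a description and not a measured site.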

How the data were processed

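RNA of PC-3 cells was hybridised to Agilent Whole Human Genome arrays in 1 colour (Cy3). Per the file headers, the deposited intensity is the processed signal of Feature Extraction 10.5.1.1, background-subtracted and detrended within each array but not scaled between arrays, on a design built on hg18. The authors also deposited a table of normalized log2 values, whose method is not given in the sources used here and which served as an alternative. Control spots and outlier spots (52 to 209 of 43376 per array) were left out, spots of a probe were averaged, log2 of the signal was taken and the 75th percentile of each array subtracted. Probes well above background on at least 6 of 11 arrays were kept.

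Differences between the common-seed and mock arrays, and between each duplex and mock, were tested with limma 3.58.1 (R 4.3.3, lmFit and eBayes, set as a block) over all probes past the filter, with Benjamini-Hochberg adjustment and a threshold of 0.05. A duplex with 1 array was assumed to vary like the other groups. A gene with several probes was described by the probe of highest mean signal. Differences past 0.5 (log2) were counted without a test. Precision is limited by the number of arrays. The calculations were tested on simulated data. Genes past the threshold and the 5 of each group with the smallest unadjusted p, 10 in all, were given with their level or difference on every array, and the 2 highest and 2 lowest of each group on an array with their difference there. The members, the lists and the motifs were chosen with earlier results of these data known. The alternatives tried were normexp background correction (offset 50), quantile normalization between arrays, other filters, no set block, the authors' table, the mean of the probes of a gene, a difference past 1 and leaving out each array. dsEcad640 has no sequence in the files used here. The promoter motifs were matched as exact letters.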

Additional observations from a re-analysis of the deposited data

Results flagged for a closer look

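In 22 groups of 4 or 6 arrays examined for a value set apart from the others, 3 had such a value, and chance gives about 1 in 20. For ANLN the miR-520c array had a difference from mock of -1.12, and the next lowest common-seed array, miR-372 sample 10, had -0.56. For CCNE1 mock sample 11 had a level of 1.77, and the next highest mock array had 1.36. For MCM5 mock sample 9 had a level of 2.40, and the next lowest mock array had 2.82. Samples 9 and 11 are the mock arrays of set 3, against which miR-372 sample 10 and miR-520c were compared.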

How the results depend on the processing

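No result reversed its sign while called, and the 10 genes given on every array kept their direction under all 16 alternatives. Of 1104 probes and 2 member genes called for the common-seed duplexes, normexp background correction gave 4 member genes, no filter on dim probes 221 probes and 1 gene, all 11 arrays well above background 2037 probes and 5 genes, and no set block 393 probes and 0 genes, while the authors' log2 values gave 2012 probes and 5 genes. Leaving out 1 array gave 25 (without mock sample 1) to 1940 probes (without miR-372 sample 4) and 0 to 2 genes. CCNF stayed called under 14 of 16 alternatives (adjusted p 0.00267 to 0.0879) and CCNE1 under 5 (0.0184 to 0.226). CHEK1, MCM6, RRM2 and PRC1 were each called under 2. By duplex, 0 probes were called, and normexp gave 25 for dsEcad640, 35 for miR-372, 1 for miR-373 and 138 for miR-520c, with 1 member gene, MCM7. With all 11 arrays well above background there were 2 for dsEcad640 and 74 for miR-520c. Leaving out 1 array gave 0 to 2343 for dsEcad640, 0 to 1568 for miR-302a, 0 to 3086 for miR-372, 0 to 89 for miR-373, 0 to 136 for miR-520c and 0 to 69 for miR-520f, with no member gene. The cause was not tested.

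Without the set block the S phase median became -0.017 for dsEcad640, -0.015 for miR-373 and 0.29 for miR-520c, and the mitosis median -0.28 for dsEcad640, -0.17 for miR-302a and -0.28 for miR-520c. For miR-520c normexp gave a mitosis median of -0.086. Leaving out 1 array gave S phase medians of -0.036 to 0.24 (without mock sample 11) and mitosis medians of -0.26 to -0.094 (without mock sample 9) for miR-520c, and mitosis medians of -0.11 to 0.0063 for miR-372. Subtracting the median of all probes on each array, an alternative chosen after seeing the data, gave -0.16 for the mitosis genes with miR-520f. The median of all probes on miR-372 sample 4 was 0.11, and -0.08 after quantile normalization. On the miR-520c array it was 0.06, and 0.16 after normexp. With a difference past 1 in place of 0.5, the miR-520f array kept 3 members lower and 1 higher, miR-520c 2 lower and dsEcad640 1 higher. Without mock sample 1 the CCNE1 change was 0.67 and the CCNF change 0.64. No paired analysis was possible because no 2 groups shared a replicate number in the labels, and arrays were matched only by slide, as the set block.

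The main limits are 1 array for most duplexes, 1 mock array in sets 1 and 2, and mixed RNA on each array, so the spread between transfections was not measured. A change smaller than its SE is not shown to be absent.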

Other observations

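Further genes of both phases were listed by function. Of 32 further S phase genes on the array none passed an adjusted p of 0.05 in limma for the common-seed duplexes, and their median was 0.12. At an unadjusted p under 0.05, 5 were higher and 3 lower, together 25% of them. That is near the 21.0% of all probes (11.3% higher and 9.69% lower). RFC2 (0.34, SE 0.08, adjusted p 0.0621) and POLA1 (0.36, SE 0.10, adjusted p 0.0866), parts of the clamp loader and of the priming polymerase, were above mock on 6 of 6 arrays. The other clamp loader genes listed did not all rise, with 0.25 for RFC4, 0.13 for RFC3 and -0.18 for RFC5, which was below mock on 6 of 6. The transcription factor gene E2F1 was below mock on 6 of 6 (-0.49, SE 0.15, adjusted p 0.116). The medians of the 32 further S phase genes by array followed those of the S phase genes in having mock sample 9 below mock sample 11, by 0.18, with 29 of 32 lower.

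Of 39 further mitosis genes none passed either, and their median was -0.01. At an unadjusted p under 0.05 in limma 3 were higher and 5 lower, together 20.5% of them, beside 21.0% of all probes. PBK, a mitotic kinase, had the lowest value (-1.07, SE 0.25, adjusted p 0.0542). The kinetochore genes NUF2 (-0.35, SE 0.08, adjusted p 0.0514) and NDC80 (-0.34, SE 0.09, adjusted p 0.0788), whose products form a complex, were below mock on 6 of 6 arrays. SPC25, a further gene of that complex, gave -0.01 (SE 0.12, adjusted p 0.971), with 0.32 on the miR-520c array. ESPL1, which encodes separase, was above it on 6 of 6 (0.40, SE 0.10, adjusted p 0.0599). With miR-520c the further mitosis genes had a median of 0.13, where the 32 mitosis genes had -0.20, so the sign for that duplex depended on which mitosis genes were counted.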
